A study of Mus musculus with 1666 samples.

Results

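The cells described here are whisker follicle epithelial cells of mouse embryos that expressed Shh, the gene of the secreted protein Sonic hedgehog, at 5 stages, E13.0 and E13.5, then E14.0, E15.0 and last E17.0. The cells were chosen by their own levels of Shh, Krt5, Trp63 and Col3a1. A cell was taken as epithelial with Krt5 and Trp63 at 10 TPM or more and Col3a1 under 50 TPM, and as Shh-high with Shh at 10 TPM or more. TPM is abundance scaled for gene length and for the total of each cell. The rule gave 75 Shh-high cells among 714 epithelial cells and 1244 cells of these stages. In the order of the stages they numbered 12, 5, 11, 15 and 32, and they came from 13 of 14 library plates. They were compared with 594 epithelial cells with Shh under 1 TPM from the same 13 plates, called Shh-low below, which numbered 39, 146, 127, 144 and 138 in the same order of stages. The 35 epithelial cells between the 2 limits were in neither class.

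All cells came from 1 transgenic line that carries a photoconvertible protein, nuclear Kikume Green-Red, and no other genotype or treatment was compared. Whole whisker follicles had been switched to red by light, and single cells were sorted for ITGA6, against CD31 and for the red form. ITGA6 is an integrin of cells that touch the basement membrane and CD31 an endothelial protein, and a sort for ITGA6 favours cells on the membrane. Genes of differentiating cells were still found: Krtdap, described below, was at 10 TPM or more in 317 of 594 Shh-low cells. The labels name no embryo, so each stage counted as 1 sample, n is 5 stages except where E12.0 is added or stages are left out, and plates and cells were not used as replicates. Read depth is unknown from TPM, and the number of genes detected per cell was similar in both classes, with stage medians of 16043 to 17939.5 in Shh-high and 16636 to 17462 in Shh-low cells.

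The hair follicle starts as a thickening of the epithelium, the placode, under Wnt and ectodysplasin signals, and grows down around a cluster of dermal cells. Epithelial cells at its leading end secrete Sonic hedgehog, which acts through the receptor Ptch1 on neighbouring epithelium and on the dermis. These cells later form the matrix, whose dividing progeny make the hair shaft and the inner root sheath, while cells higher up keep Sox9 and Nfatc1 and become the outer root sheath and stem cells.

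Shh itself is described without a test, since it chose the cells. The 75 values lay between 11.3 and 268 TPM with a median of 69.6 TPM. Stage medians from E13.0 to E17.0 were 35.7, 121, 47.8, 76.9 and 76.7 TPM. The cells of different stages overlapped widely. Just above the limit of 10 TPM were cells with 11.3, 11.501 and 12.5 TPM, and just below it were cells with 9.29, 8.97 and 7.38 TPM. At the other limit, the nearest cells had 0.919 and 1.003 TPM. Of the 594 Shh-low cells, 409 were listed at 0. Of 530 cells of these stages that failed the epithelial rule, 1 had Shh at 10 TPM or more, or 0.189%.

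Shh-high cells made up 22.6% of epithelial cells at E13.0 (exact Clopper-Pearson 95% interval 12.3 to 36.2%), 3.14% at E13.5 (1.03 to 7.19%), 7.64% at E14.0 (3.87 to 13.3%), 8.43% at E15.0 (4.79 to 13.52%) and 17.8% at E17.0 (12.5 to 24.2%). The intervals cover counting error only. The share was lower from E13.5 to E15.0 than at both ends. Plates of E13.5 and E14.0 had at most 8.45%, under every plate of E13.0 (14.3% or more) and of E17.0. Against the ends, plates of E15.0 overlapped only with those of E17.0. The E15.0 plates reached 11.3%, and the plates of E17.0 spread from 10.9 to 22.4%. The make-up of the cells also differed: epithelial cells were 53 of 267 at E13.0, 159 of 181 at E13.5 and 144 of 177 at E14.0. They were 178 of 350 at E15.0 and 180 of 269 at E17.0. One E15.0 plate had 10 epithelial cells and no Shh-high cell and was left out of the comparisons.

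**Figure D1:**
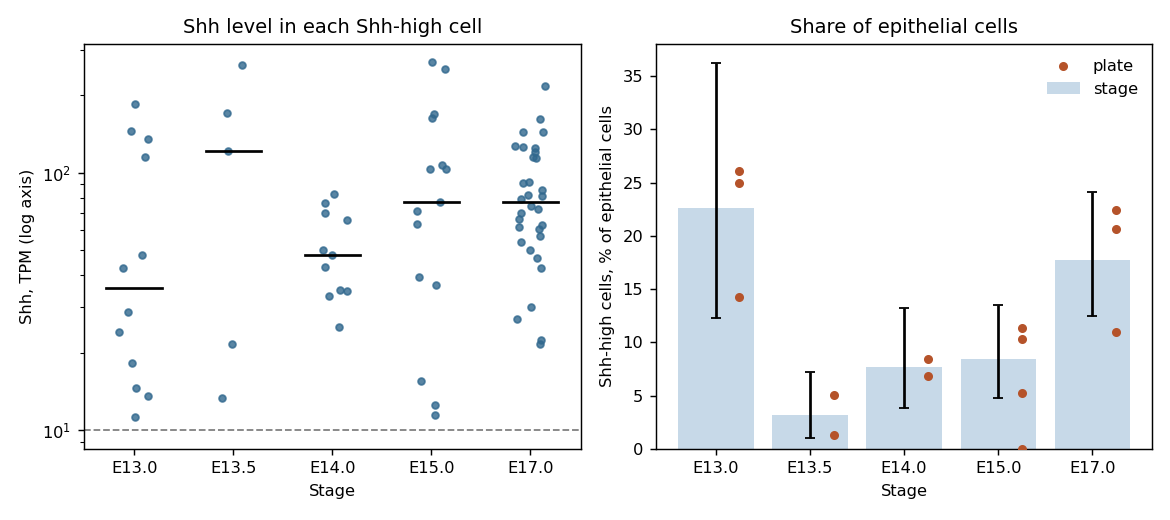
Left, Shh level in TPM (log axis) of each of the 75 Shh-high cells by stage, with the stage median as a black line and the limit of 10 TPM dashed. Right, Shh-high cells as a percentage of epithelial cells (bars, with exact 95% intervals) and the value of each plate (points); the share is 22.6% at E13.0, 3.14% at E13.5 and 17.8% at E17.0.

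The label of the cells was checked with Lef1, the transcription factor through which Wnt signals act, and Msx2, a transcription factor of the matrix. Lef1 was at 10 TPM or more in 74 of 75 Shh-high cells and in 282 of 594 Shh-low cells. Msx2 was at 10 TPM or more in 62 of 75 Shh-high cells and in 53 of 594 Shh-low cells. Both were present together in 62 of 75 Shh-high cells, and at E13.0 Msx2 reached that level in 7 of 12. As for other cell types, short marker lists for fibroblasts, endothelium, melanocytes, nerve and Schwann cells, Merkel cells, immune cells and dermal condensate found no Shh-high cell with 3 or more markers of a type at 10 TPM or more. A second set of lists, mostly longer, for 5 of these types found 3 Shh-high and 47 Shh-low cells, and without them 1853 genes passed the comparison below, in which 1941 passed with all cells. The immune marker C1qa and the Merkel cell keratin Krt20 were at 0 in all 75 cells. Single genes of these lists that stood out, Dcn, Dct and Tubb3, are described below.

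Shh-high and Shh-low cells were compared over all genes with limma, on the difference of log2(mean TPM + 1) between the classes at each stage. Folds of low genes are understated on this scale. Of 22901 genes tested, 1941 or 8.48% passed a Benjamini-Hochberg adjusted p of 0.05, with 705 (3.08%) higher and 1236 (5.40%) lower in Shh-high cells. The split rests on how the cells were averaged. With the mean of log2 values over cells in place of log2 of the mean, 1243 genes (5.43%) were higher and 1130 (4.93%) lower, 10.4% in all, and 1635 of the 1941 genes passed in both with the same sign. The median of all genes differed by -0.07. Fewer genes passed with 1 stage left out: 501 without E14.0, 705 without E15.0 and 897 without E17.0, and of 93 genes named here that passed, 59, 60 and 71 still did. The genes named here that lost their call each time, without E14.0, without E15.0 and without E17.0, were Bdnf, Ccnd1, Cldn10, Col1a2, Col7a1, Dlx1, Efnb1, Fgfr1, Hoxc13, Igfbp3, Irx5, Krt14, Krt27, Mitf, Msx1, Rnf43, Scd1, Sfrp2, Sox9 and Stfa1.

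**Figure D2:**
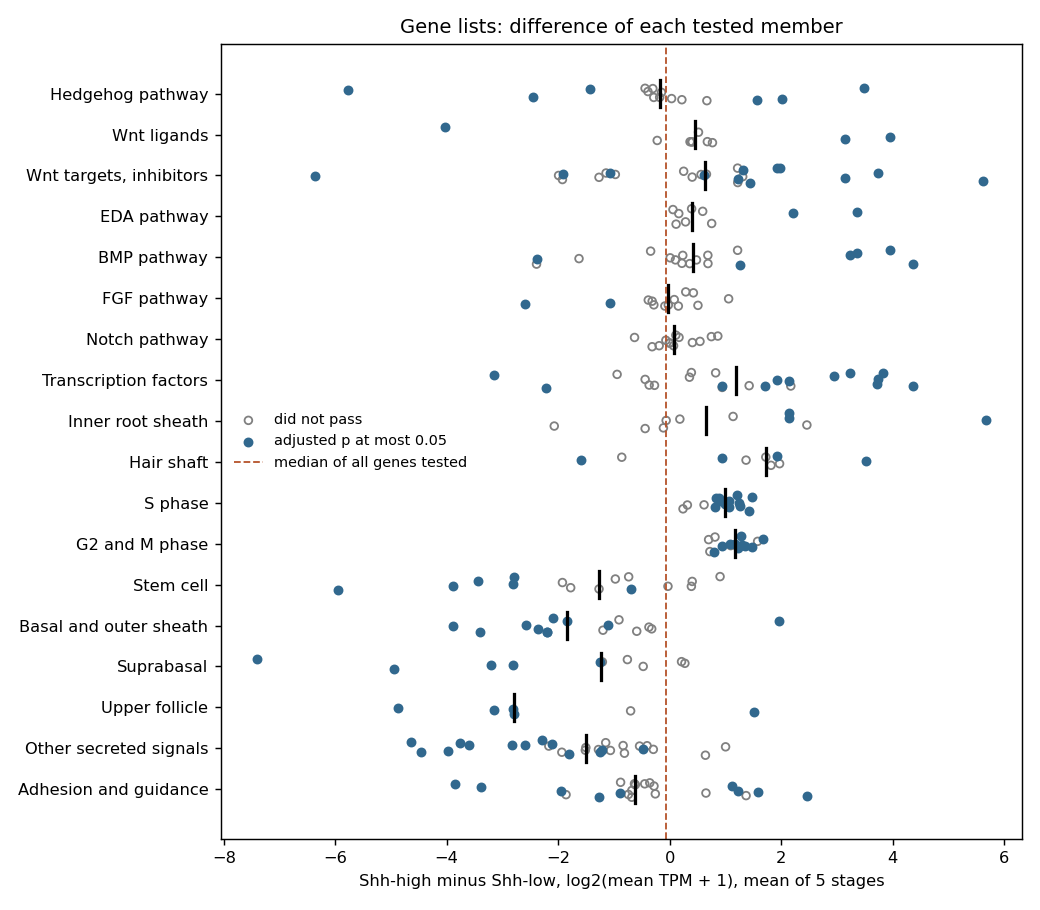
Shh-high minus Shh-low difference in log2(mean TPM + 1), averaged over 5 stages, for each tested member (point) of 18 gene lists. Filled points passed an adjusted p of 0.05, black bars are list medians and the dashed line is the median of all genes tested, -0.07; the S phase and G2 and M phase lists lie wholly to the right of it.

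Among the 12 most raised genes taken by a fixed rule were genes of Wnt and BMP signals, transcription factors and keratins. They were Krt28, Notum, Msx1, Wnt10b, Bmp2, Sox21, Lef1, Dlx3, Pcdh19, Cldn10, Krt35 and Bmp4, with differences from 5.68 to 3.37 on the log2 scale. The 12 most lowered genes were Krtdap, Sostdc1, Stfa3, Nfatc1, Gas1, Stfa1, Krt1, Krt79, Igf2, Lmcd1, Pthlh and Barx2, from -7.40 to -4.34. For 23 of these 24 genes the stage means of the classes did not overlap, which held for 8.84% of all genes tested; for Dlx3 they did. The 24 were picked for their size, so this is a description. Stfa1 and Stfa3 are close copies, and how reads were shared between them is not known. Both had a median of 0 in Shh-low cells, with 169 and 146 of 594 cells at 10 TPM or more. Their Shh-low means thus rested on a minority of cells.

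**Figure D3:**
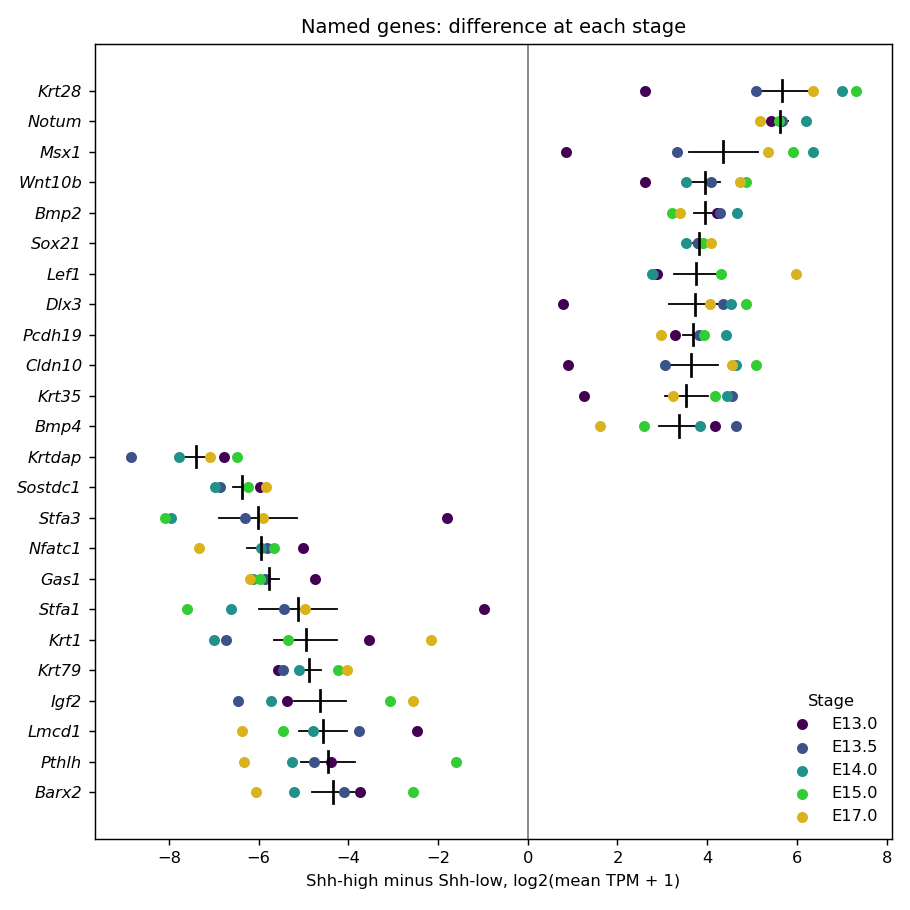
Shh-high minus Shh-low difference in log2(mean TPM + 1) at each of 5 stages (coloured points) for the 12 most raised and the 12 most lowered genes; the black tick is the limma estimate and the horizontal line its standard error. All points of a gene lie on 1 side of 0, and the E13.0 point of Dlx3 is at 0.78 against 4.06 to 4.87 at the other stages.

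The hedgehog pathway moved in both directions within these cells. Of 15 tested members 3 were higher and 3 lower, and the list median was -0.18 against -0.07 over all genes. Ptch1, the main receptor and a target of the pathway, had Shh-high means of 141, 190, 265, 145 and 81.4 TPM from E13.0 to E17.0 against 156.1, 79.4, 116, 103 and 54.8 TPM in Shh-low cells. The Shh-high mean was above the Shh-low mean at 4 of 5 stages, and the difference did not pass (0.67 ± 0.21, limma adjusted p = 0.099); averaged over log2 values it did (1.32, adjusted p = 0.024). Gli1, a transcription factor that the pathway induces, had 57, 82.5, 61.4, 22.8 and 15.2 TPM against 59, 31.1, 42.4, 44.7 and 49.7 TPM. Its Shh-high means were above the Shh-low means at E13.5 and E14.0 and below them at E15.0 and E17.0, and its mean difference was -0.15 ± 0.41 (limma adjusted p = 0.87).

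Co-receptors that help cells bind hedgehog protein were low where Shh was high. Gas1, a co-receptor held on the cell surface, had 1.48, 0.187, 0.521, 0.331 and 0.144 TPM in Shh-high cells against 65, 67.8, 106, 82.3 and 82.2 TPM in Shh-low cells. No stage mean of one class came near those of the other, and the difference was -5.78 ± 0.23 (limma adjusted p = 0.00019). Boc, a second co-receptor, differed by -2.45 ± 0.19, and the transcription factor Gli2 by -1.42 ± 0.12. Scube1 and Scube3, secreted proteins of a family that aids release of hedgehog protein, were higher by 3.48 ± 0.42 and 2.01 ± 0.27. Scube1 had 34.9, 34.9, 6.61, 14 and 4.33 TPM in Shh-high cells and at most 0.716 TPM in the Shh-low class.

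Among the lists of signalling pathways, that of Wnt targets and inhibitors held the most raised members. Of its 24 tested genes 9 were higher and 3 lower, with a median of 0.64, and of 10 tested genes for ligands and their release 2 were higher and 1 lower (4 and 1 with log2 values averaged). Wnt10b, a ligand of the placode, had 48.8, 89.96, 89.4, 121 and 72.1 TPM in Shh-high cells against 7.14, 4.37, 6.89, 3.22 and 1.75 TPM (3.96 ± 0.33, limma adjusted p = 0.0024). Wnt5a, a ligand known for signals that bypass beta-catenin, had 28.2, 104, 217, 122 and 138 TPM against 4.25, 4.77, 10.8, 19.4 and 26.6 TPM (3.16 ± 0.33). Wnt7b was the ligand that went down, with at most 0.956 TPM in Shh-high cells against 14.9 to 31.4 TPM (-4.03 ± 0.24, limma adjusted p = 0.0007).

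Lef1 had Shh-high stage means of 152, 180, 365, 580 and 455 TPM against 19.9, 25, 53, 28.4 and 6.26 TPM in Shh-low cells. The classes were apart at every stage (3.74 ± 0.48, limma adjusted p = 0.0082), and on the log2 scale E17.0 had the widest gap. Among targets that restrain the pathway, Notum, an enzyme that removes the lipid of Wnt proteins, had 41.6, 59, 93.1, 66.6 and 46.9 TPM against at most 0.395 TPM (5.62 ± 0.18, limma adjusted p = 0.00011). Notum was nonetheless uneven between cells: 46 of 75 Shh-high cells had 10 TPM or more and 21 were listed at 0, against 5 of 594 Shh-low cells at that level. Nkd1 (3.14 ± 0.21), Axin2 (1.94 ± 0.25), Znrf3 (1.22 ± 0.13), Kremen2 (1.99 ± 0.37) and Rnf43 (0.62 ± 0.11), all of which dampen Wnt signals, were higher too. Tcf7, a relative of Lef1, and Ccnd1, a cyclin, were higher by 1.45 ± 0.29 and 1.32 ± 0.30.

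The member of the Wnt list with the strongest change in the other direction was Sostdc1, a secreted inhibitor of Wnt and BMP signals. It had 0.872, 0.359, 0.302, 0.641 and 0.317 TPM in Shh-high cells against 116, 155.97, 162, 123 and 74 TPM in Shh-low cells (-6.37 ± 0.21, limma adjusted p = 0.00011). Sfrp2, which binds Wnt proteins, and Lgr4, a receptor for R-spondins, were lower (-1.91 ± 0.36 and -1.07 ± 0.20). Lgr5, a receptor of the same kind and a stem cell marker, had 15.7, 41.6, 44.7, 5.83 and 3.15 TPM against 49.3, 38, 66.7, 74.6 and 71 TPM and did not pass (-1.92 ± 0.62, limma adjusted p = 0.11).

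**Figure D4:**
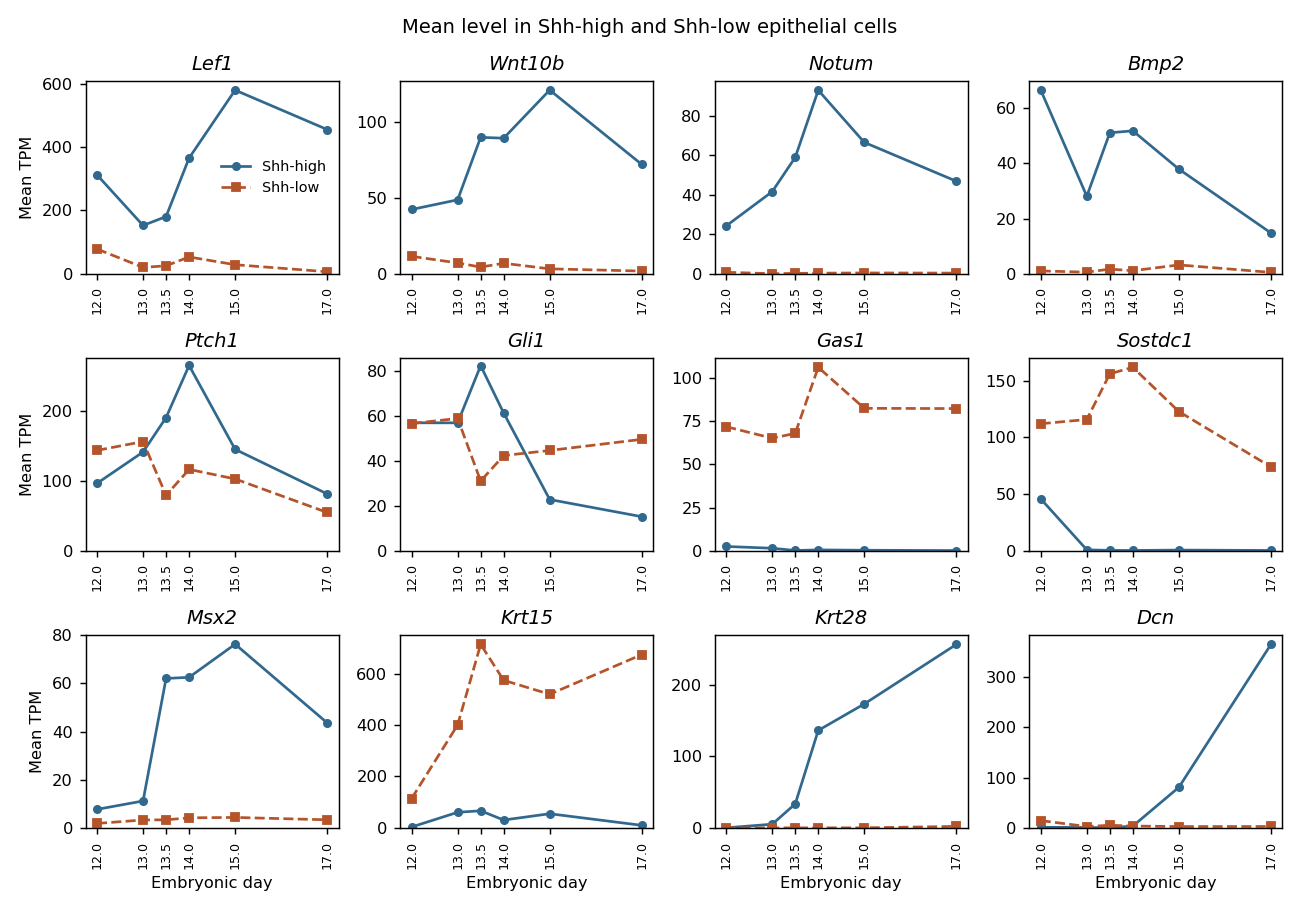
Mean TPM in Shh-high (blue circles) and Shh-low (orange squares) epithelial cells by embryonic day for 12 genes, with E12.0 as the earlier stage built by the same rule. In Shh-high cells Krt28 has 5.16 TPM at E13.0 and 256 TPM at E17.0, Dcn has 0.803 and 364 TPM, and the lines of Gli1 and Ptch1 cross; no course over stages passed the test.

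The BMP ligands Bmp2 and Bmp4 and the genes Msx1 and Msx2 were higher in Shh-high cells. Of 18 tested members of the BMP list 5 were higher and 1 lower, with a median of 0.42. Bmp2 had 28.1, 51.1, 51.8, 38 and 14.8 TPM against 0.567, 1.67, 1.09, 3.19 and 0.491 TPM (3.96 ± 0.24, limma adjusted p = 0.00087), and Bmp4 had 26.2, 72.2, 61.7, 47 and 16.6 TPM against 0.503 to 6.99 TPM (3.37 ± 0.44). Both ligands were apart between the classes at each stage. Msx1 and Msx2, transcription factors that BMP signals induce, were higher by 4.36 ± 0.78 and 3.24 ± 0.35. Msx1 had only 1.24 TPM in Shh-high cells at E13.0, 11.2 at E13.5 and 97.2, 93.1 and 46.6 TPM later, and its call was lost without E14.0, E15.0 or E17.0. Smad7, a brake on the pathway, was higher by 1.27 ± 0.27, and the receptor Bmpr1b was lower (-2.37 ± 0.32).

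Edar, the receptor for ectodysplasin, had 34.7, 63.6, 25, 35.7 and 28.2 TPM in Shh-high cells against 5.60, 1.52, 3.70, 2.57 and 0.997 TPM in Shh-low cells (3.36 ± 0.34, limma adjusted p = 0.0046). Its relative Tnfrsf19 was higher by 2.21 ± 0.43, and these were the 2 of 9 tested members of the ectodysplasin list that passed. In the FGF list none of 13 was higher and 2 were lower, the ligand Fgf9 (-2.59 ± 0.45) and the receptor Fgfr1 (-1.07 ± 0.24), of which Fgfr1 did not pass when log2 values were averaged; 3 members were then higher and 1 lower. None of 13 tested Notch genes passed limma at an adjusted p of 0.05, and 1 passed when log2 values were averaged. Over all genes 3.08% were higher and 5.40% lower (5.43% and 4.93% with log2 values averaged). Counts this small in lists of 13 thus say little about the FGF and Notch genes as families.

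Transcription factors of placode and matrix gave 10 higher and 2 lower of 22 tested, with a median of 1.19. Sox21, known for its part in hair shaft differentiation, had 15, 33.9, 54, 60.1 and 32.6 TPM against 0.161 to 3.74 TPM and a difference of like size at each stage (3.82 ± 0.14, limma adjusted p = 0.00013). Dlx3, a homeobox gene of hair and tooth, had 5.41 TPM in Shh-high cells at E13.0, then 44.7, 194, 185 and 168 TPM, against 1.24 to 9.18 TPM in Shh-low cells (3.72 ± 0.57). Its classes thus overlapped through E13.0 alone, and the call was lost without E14.0. Dlx2 (2.95 ± 0.34), Dlx1 (1.72 ± 0.30), Cux1 (2.15 ± 0.32) and Hoxc13 (1.92 ± 0.39), the latter a regulator of hair keratins, were higher. Prdm1, a repressor found in sebaceous and suprabasal cells, and the homeobox gene Irx5 were lower (-3.15 ± 0.51 and -2.22 ± 0.49).

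For other regulators the order of the classes differed between stages. Lhx2, a homeobox gene of placode and stem cells, had 236.8, 454, 308, 158.5 and 84.6 TPM in Shh-high cells against 164, 95.8, 174.1, 183 and 229 TPM in Shh-low cells. Its Shh-high mean was above the Shh-low mean up to E14.0 and below it from E15.0, and the mean difference of 0.39 ± 0.46 did not pass (limma adjusted p = 0.67). Foxi3, a placode factor downstream of ectodysplasin, had 17.6, 43.1, 18.4, 2.38 and 1.38 TPM against 16.2, 4.82, 2.94, 0.884 and 0.227 TPM (1.43 ± 0.41, limma adjusted p = 0.081). Gata3, a regulator of the inner root sheath, was at 138 to 357 TPM in Shh-high and 155.7 to 485 TPM in Shh-low cells and did not pass.

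Keratins of the inner root sheath and the hair shaft were among the raised genes, in shares of cells that differed between stages. Krt28, a keratin of the inner root sheath, had 5.16, 33.5, 136, 173.3 and 256 TPM against at most 2.12 TPM in Shh-low cells (5.68 ± 0.66, limma adjusted p = 0.0062). Cells with 10 TPM or more of Krt28 numbered 3 of 12, 3 of 5, 9 of 11, 14 of 15 and 32 of 32 from E13.0 to E17.0. The Shh-low class had 8 such cells of 594, all of them at E17.0. Krt35, a keratin of the hair cortex and cuticle, had 5.51, 40.6, 39.4, 24.4 and 12.7 TPM against at most 1.73 TPM (3.53 ± 0.48). Its cells were 1 of 12, 3 of 5, 9 of 11, 4 of 15 and 4 of 32, most frequent at E14.0.

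Krt28 was at 10 TPM or more in 61 of 75 Shh-high cells and Krt35 in 21 of 75. With Krt28 in most cells, shared cells are likely without any link between the 2 keratins. Of 75 Shh-high cells 17 had Krt28 and Krt35 at 10 TPM or more, 4 had Krt35 without Krt28 and 10 had neither, 8 of the latter at E13.0. Krt25, another inner root sheath keratin, was at that level in 0 of 12, 0 of 5, 1 of 11, 5 of 15 and 15 of 32 cells, and all 21 of these cells also had Krt28. With 0 of 12 and 0 of 5 cells, the exact upper limits of the share are 26.5% and 52.2%. Since Krt28 was in 14 of 15 cells at E15.0 and 32 of 32 at E17.0, the overlap of Krt25 with Krt28 says little about a link. Krt25 means of 4.93, 24.5 and 154 TPM from E14.0 on rested on a few cells, up to 2897 TPM in 1 cell, and the difference did not pass (2.46 ± 0.93, limma adjusted p = 0.16). Krt71 was at 10 TPM or more in 2 of 32 cells at E17.0 and in none of the earlier Shh-high cells. Type I and type II keratins are families of close relatives, so reads may have been shared among them. Of 10 tested inner sheath genes 3 were higher and none lower, the third being Krt27 (2.13 ± 0.41) beside Krt28 and Cux1. With log2 values averaged 3 were higher and 2 lower. Of 9 hair shaft genes 3 were higher and 1 lower.

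**Figure D5:**
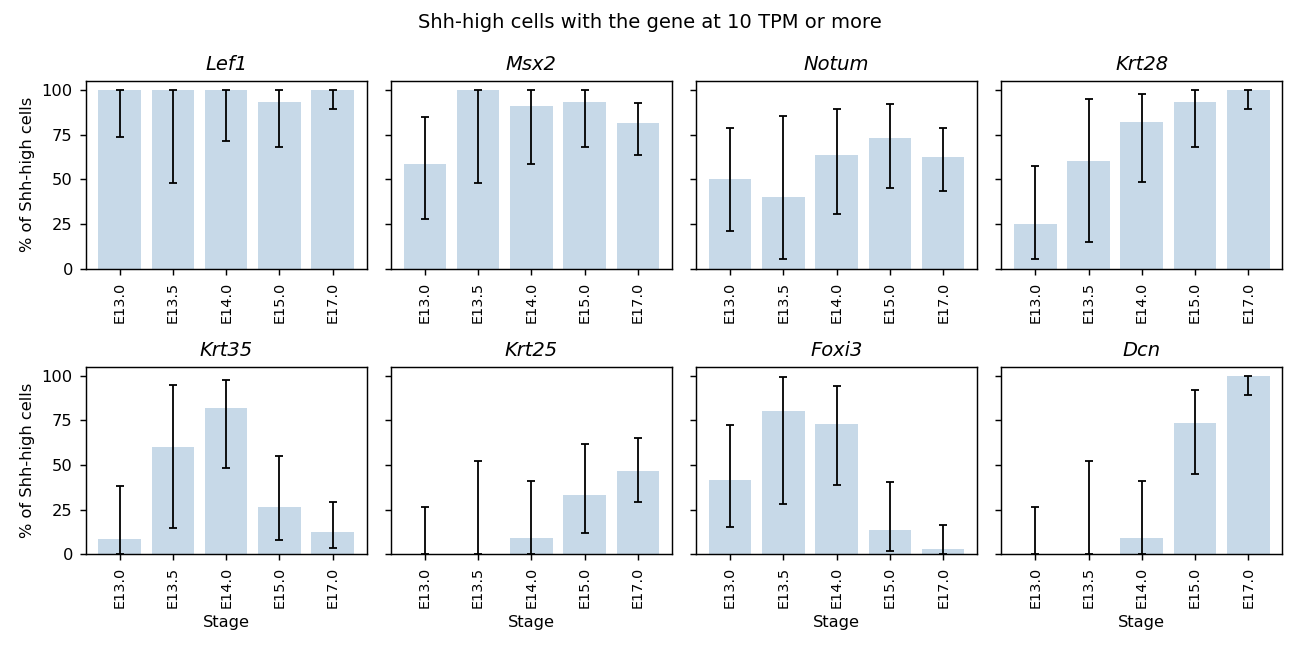
Percentage of Shh-high cells with each of 8 genes at 10 TPM or more by stage (bars, with exact 95% intervals for counting error). Lef1 is near 100% throughout, Krt28 goes from 3 of 12 to 32 of 32 cells, Krt35 and Foxi3 are most frequent at E13.5 and E14.0, and Dcn goes from 1 of 11 cells at E14.0 to 32 of 32 at E17.0.

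The promoter of the leading gene Krt28 and of 2 genes that hold a core Lef1 motif are shown, because Lef1 was among the most raised genes. The sequences are from RefSeq with build GRCm38.p6, each the 250 bases before the start of the gene, 5′ to 3′ on the strand of the gene. Capitals mark the motif CTTTGAT or its reverse complement ATCAAAG.
Krt28, chr11:99374904-99375153, minus strand: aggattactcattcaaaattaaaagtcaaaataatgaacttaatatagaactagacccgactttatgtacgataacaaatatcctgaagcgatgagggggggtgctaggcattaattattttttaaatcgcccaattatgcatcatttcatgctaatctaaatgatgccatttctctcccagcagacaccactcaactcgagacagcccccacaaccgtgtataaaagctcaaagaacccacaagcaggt
Edar, chr10:58675697-58675946, minus strand: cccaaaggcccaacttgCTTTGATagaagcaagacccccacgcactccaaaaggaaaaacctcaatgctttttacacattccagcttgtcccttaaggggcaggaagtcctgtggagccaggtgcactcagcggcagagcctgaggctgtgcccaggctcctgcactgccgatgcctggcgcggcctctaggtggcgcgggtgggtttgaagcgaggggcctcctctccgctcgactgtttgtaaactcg
Krtdap, chr7:30787655-30787904, plus strand: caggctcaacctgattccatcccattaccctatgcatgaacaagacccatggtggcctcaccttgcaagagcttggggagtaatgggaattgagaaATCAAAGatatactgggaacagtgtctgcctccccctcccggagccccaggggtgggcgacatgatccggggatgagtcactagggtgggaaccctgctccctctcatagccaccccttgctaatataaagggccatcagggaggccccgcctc
The motif was searched on both strands. It occurs in 3.21% of the 32851 promoters of the table over the same 250 bases. Of the 24 genes named by the rule 16 had a promoter in the table, 23 promoters in all, and 1 of these, that of the lowered gene Krtdap, held the motif. Edar, a raised gene outside the 24, was shown because its promoter holds the motif, and the promoter of Krt28 did not hold it.

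Several genes of stem cells and of the outer root sheath were lower in Shh-high cells. Of 15 tested stem cell genes none was higher and 6 were lower, with a median of -1.27, and of 15 tested basal and outer sheath genes 1 was higher and 9 were lower, with a median of -1.85. Nfatc1, a transcription factor of follicle stem cells, had at most 2.51 TPM in Shh-high cells against 79, 60.3, 163, 175 and 274 TPM in Shh-low cells (-5.95 ± 0.31, limma adjusted p = 0.00049), and it reached 10 TPM in 1 of 75 Shh-high cells. Sox9, a factor of the early upper placode, had 17, 17, 0.697, 25.9 and 0.318 TPM against 62.5, 92.8, 62.7, 85.6 and 86.3 TPM (-3.43 ± 0.70, limma adjusted p = 0.031). Its E15.0 mean came mainly from 1 cell with 380 TPM, and 5 of 75 Shh-high cells had 10 TPM or more. The Sox9 call was lost with any 1 of the stages after E13.0 left out, with adjusted p from 0.051 to 0.099. Lrig1 and Plet1, genes of the upper follicle, were lower by log2 differences of -2.81 ± 0.35 and -2.79 ± 0.29.

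Among basal genes, Krt15 had 60.6, 66.6, 30.6, 55.1 and 9.98 TPM against 400, 714, 574, 520 and 674 TPM (-3.89 ± 0.43, limma adjusted p = 0.0056). Krt14, the partner of Krt5, had 303, 243, 66.8, 40.8 and 124 TPM against 647, 622, 815, 557 and 296 TPM (-2.20 ± 0.46, limma adjusted p = 0.032). Genes that anchor cells to the basement membrane were lower as well: Col17a1 (-2.36 ± 0.26), Col7a1 (-2.20 ± 0.42), Dst (-2.10 ± 0.30), Itga6 (-1.85 ± 0.23) and Itgb4 (-1.10 ± 0.23). Itga6 encodes the protein used in the sort, so both classes were taken from cells that carry it. Krt75, a keratin of the companion layer, was the 1 basal and sheath gene that was higher (1.97 ± 0.40). Krt5, which chose the cells, is given without a test: 153, 249, 240, 441 and 639 TPM in Shh-high and 849, 703, 793, 769 and 962 TPM in Shh-low cells.

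Among genes of cells that leave the basal layer, of 10 tested none was higher and 5 were lower, of which 2 were lower when log2 values were averaged. Krtdap, made by differentiating keratinocytes, had at most 2.33 TPM in Shh-high cells against 109, 460, 537, 298 and 214 TPM in Shh-low cells (-7.40 ± 0.33, limma adjusted p = 0.00029). Krt1 had at most 0.534 TPM against 13, 128, 186, 61.9 and 5.29 TPM, and Krt10 had 2.72 to 4.71 TPM against 5.47 to 175 TPM (-3.20 ± 0.74, limma adjusted p = 0.045). Krt1 was at 10 TPM or more in 89 of 594 Shh-low cells, and the median was 0.718 TPM. Its Shh-low means thus rested on a minority of cells. The Krt10 call was lost when log2 values were averaged and under many other settings. Among these were pseudocounts of 0.1 and 5 TPM and leaving out E13.0, E13.5, E14.0 or E15.0. Krt79, a keratin of the upper follicle canal, had 0.129 to 2.87 TPM against 19.1 to 134 TPM (-4.87 ± 0.27), and it also did not pass when log2 values were averaged. Its Shh-low means rested on few cells: 65 of 594 had 10 TPM or more, and the median was 0. Of 6 tested upper follicle genes 4 were lower and 1, Scd1, an enzyme of lipid synthesis, was higher (1.51 ± 0.27).

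Secreted factors outside these pathways were lower or did not pass: of 27 tested none was higher and 13 were lower, with a median of -1.50. Igf2, a growth factor, had 7.70, 2.51, 2.003, 7.36 and 2.69 TPM against 356, 307, 158.2, 68.9 and 20.8 TPM (-4.63 ± 0.59, limma adjusted p = 0.0078). Pthlh, a hormone-like factor of epidermis, had 2.90, 2.58, 1.58, 44.4 and 0.803 TPM against 80.4 to 145 TPM (-4.46 ± 0.60). Its E15.0 mean rested on 1 of 15 cells, with 657 TPM, and the median there was 0. The IGF-binding genes Igfbp5 and Igfbp3 were lower by log2 differences of -3.98 ± 0.14 and -3.77 ± 0.72. The neurotrophins Ntf3 (-2.12 ± 0.48) and Bdnf (-1.81 ± 0.35), the receptor ligand Nrg1 (-2.30 ± 0.27) and the platelet-derived growth factor Pdgfc (-2.83 ± 0.34) were lower as well.

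Genes of DNA replication and mitosis were higher in Shh-high cells. Of 15 tested S phase genes 12 were higher and none lower, with a median of 0.99, and of 15 tested G2 and M phase genes 10 were higher and none lower, with a median of 1.17. Mcm2 and Mcm5, subunits of the replicative helicase, were higher by 1.27 ± 0.13 and 1.48 ± 0.18, and Rrm2, which makes deoxynucleotides, by 1.42 ± 0.13. Mki67, a marker of cycling cells, had 36.5, 48.4, 90.7, 57.5 and 80.3 TPM against 4.70, 20.3, 30.1, 26.4 and 22.9 TPM (1.67 ± 0.24, limma adjusted p = 0.011). Top2a and Plk1, genes of mitosis, were higher by 1.36 ± 0.21 and 1.27 ± 0.20. Of 75 Shh-high cells 62 had Mki67 or Top2a at 10 TPM or more, as had 59 of 64 Shh-high cells at the earlier stage E12.0. This count was made for Shh-high cells only. Cdkn1c, which stops the cell cycle, was lower (-1.76 ± 0.31). The early response gene Dusp1 was lower (-1.72 ± 0.19), the 1 of 11 tested stress genes that passed. Such a count is close to the 8.48% of all genes that passed.

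Adhesion and guidance genes split. Of 22 tested 4 were higher and 5 lower, with a median of -0.62, and with log2 values averaged 5 were higher and 8 lower. Of the cadherins, the placode cadherin Cdh3 had 63.1, 127, 168, 153 and 105 TPM against 43.5 to 69.9 TPM (1.13 ± 0.20, limma adjusted p = 0.019), and the general epithelial cadherin Cdh1 had 59.6, 33.1, 26, 48.5 and 32.9 TPM against 74.6 to 111 TPM (-1.26 ± 0.20, limma adjusted p = 0.015). The Cdh1 classes did not overlap and those of Cdh3 did. The Cdh1 call was lost without E14.0, and the Cdh3 call without E13.5, E14.0 or E15.0. Nrp2, a receptor for class 3 semaphorins, was higher by 2.47 ± 0.30, while the semaphorins Sema3a and Sema3e were lower by log2 differences of -3.85 ± 0.29 and -3.38 ± 0.31. Robo1, a guidance receptor, was higher at every stage (1.22 ± 0.17), and the ephrin Efnb1 at 4 of 5 (1.59 ± 0.34). The rule also named Pcdh19, a protocadherin (3.68 ± 0.23), and Cldn10, a claudin of tight junctions (3.64 ± 0.59).

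Dcn, Dct and Tubb3, genes best known from other cell types, were found in Shh-high cells. Dcn, the matrix proteoglycan decorin of fibroblasts, had 0.803, 0.462, 3.63, 80.6 and 364 TPM in Shh-high cells against 2.65 to 5.20 TPM in Shh-low cells. Cells at 10 TPM or more numbered 0 of 12, 0 of 5, 1 of 11, 11 of 15 and 32 of 32, and all 44 of them also had Krt28 at that level. Krt28 was at that level in 14 of 15 cells at E15.0 and 32 of 32 at E17.0. The overlap was thus largely fixed by the share of Krt28 cells and says little about a link. In the Shh-low class 77 of 594 cells had Dcn at 10 TPM or more, with 45.1 TPM at most. The difference over stages did not pass (1.58 ± 1.27, limma adjusted p = 0.51). The summed stage mean of 7 fibroblast markers was 9.60 to 369 TPM in Shh-high and 14.8 to 131 TPM in Shh-low cells, and 4 of the 7 had a mean of 1 TPM or more in each class. Of the other markers at E17.0, Col1a1 reached 10 TPM in 1 of 32 Shh-high cells and Lum and Pdgfra in none, and over all stages Col1a2 (-3.83 ± 0.68) and Fbn1 (-2.34 ± 0.31) were lower in Shh-high cells.

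Dct, an enzyme of melanin synthesis, had 5.60, 9.62, 9.95, 11.7 and 12.5 TPM in Shh-high cells against at most 0.128 TPM in Shh-low cells (3.30 ± 0.21, limma adjusted p = 0.00088). It reached 10 TPM in 40 of 75 Shh-high cells, with 43.1 TPM at most. Mitf, the melanocyte regulator, was lower in Shh-high cells (-1.23 ± 0.20), and Tyr, Pmel, Tyrp1 and Sox10 reached 10 TPM in none of the 75. The 7 melanocyte markers summed to 7.96 to 17.9 TPM in Shh-high and 3.98 to 14.3 TPM in Shh-low cells. Tubb3, a tubulin of neurons, had 25.8, 20.4, 7.05, 5.92 and 3.42 TPM against 5.93, 2.08, 1.46, 0.478 and 0.709 TPM (2.01 ± 0.23, limma adjusted p = 0.006). It was at 10 TPM or more in 18 of 75 Shh-high cells, and the nerve and Schwann cell markers Sox10 and Foxd3 had a median of 0 in both classes.

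Whether these differences moved with embryonic day was tested over the same 5 stages. No gene of 22901 passed limma for a change of the difference with day, with a lowest adjusted p of 0.072 and 1975 genes at an unadjusted p under 0.05. Again 0% passed for a trend of Shh-high cells alone (1984 at an unadjusted p under 0.05). The values below are thus descriptions. The difference moved most upward, among genes of 1 sign at all stages, in Nebl, S100a3, Igf2, Lef1, Msx1, Dmkn, Pak6 and Krt1. It moved most downward in Megf6, Ephb6, Tnc, Col1a2, Pxdc1, Ndufa4l2, Sorbs2 and Tnfrsf11b. For Lef1 the slope was 0.86 ± 0.11 per day, with Shh-low means of 6.26 TPM at E17.0 as the lowest of its 5. For Megf6, a gene of an EGF-repeat protein, Shh-high means were 42.3, 49.3, 13.7, 1.53 and 1.19 TPM and Shh-low means 78.7 to 136 TPM.

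Within Shh-high cells alone the steepest courses upward, by the same rule, were those of Krt28, S100a3, Dlx3, Fam83g, Msx1, Apoe, Kit and Apoc1. S100a3, a calcium-binding protein of the hair cuticle, had 2.52, 1.69, 26.2, 30.9 and 47.1 TPM, against 1.66 to 2.38 TPM in Shh-low cells. The steepest courses downward were those of Grb10, Cbln1, Mdk, Megf6, Sox11, Foxi3, Tgfb3 and Dchs1. Mdk, a heparin-binding growth factor, had 90.2, 41.1, 10.9, 2.07 and 1.60 TPM in Shh-high cells and 209, 148, 99.5, 57.5 and 53.4 TPM in Shh-low cells. Grb10, an adaptor of insulin receptor signals, had 189, 139, 35.4, 18.2 and 2.13 TPM in Shh-high cells.

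At E12.0, the stage before, the same rule gave 64 Shh-high and 175 Shh-low cells. The difference between the classes at E12.0 was compared with that at the later stages, and no gene of 23662 passed limma (0%, with 1935 at an unadjusted p under 0.05 and a lowest adjusted p of 0.19). The lone E12.0 sample was assumed to vary like the others. The values of some genes at E12.0 are given for comparison. Several genes raised later were already more frequent in Shh-high cells at E12.0. At 10 TPM or more, Notum was in 34 of 64 Shh-high and 1 of 175 Shh-low cells, and Bmp2 in 53 and 6. Wnt10b was in 56 and 66 and Edar in 62 and 43 of the same cells. Lef1 was in nearly all cells of both classes, 64 of 64 and 169 of 175, with medians of 289 and 61.2 TPM. Dlx3 was not more frequent, with 24 of 64 and 88 of 175. The genes that follow were less alike between E12.0 and the later stages. Krt28 and Krt35 were at 0.134 and 0.344 TPM in Shh-high cells at E12.0 and reached 10 TPM in none of the 64. Sostdc1 had 45.8 TPM in Shh-high and 112 TPM in Shh-low cells at E12.0, and at most 0.872 TPM in Shh-high cells later (difference of E12.0 from the later stages 5.10 ± 0.50, limma adjusted p = 0.19). Nfatc1 had 3.81 and 5.71 TPM in the 2 classes at E12.0, before its Shh-low level of 60.3 TPM or more. Foxi3 was at 10 TPM or more in 58 of 64 Shh-high cells at E12.0 and in 20 of 75 later, and Msx2 in 16 of 64 and 62 of 75. Pcdh19 and Dct had 1.15 and 0.0803 TPM in Shh-high cells at E12.0.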

How the data were processed

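Sorted single cells of whisker follicles had been profiled by RamDA-seq, which reads total RNA over its full length. The deposited values are TPM per symbol and cell; per the submitters' processing notes the tools were HISAT2 2.0.4, Subread 1.5.0 with featureCounts, and bcl2fastq 1.0, on build mm10. Whether counting used the strand, and the annotation release, are not given in the sources used here. Of 1666 labelled cells 1614 had values. Cells were averaged per class and stage, with cells of plates that held at least 1 Shh-high cell, and log2(mean TPM + 1) was fitted with limma 3.58.1 (R 4.3.3; lmFit, eBayes with trend) with stage as the pair, where the mean over class means reached 1 TPM. Tests were two-sided. Labels pair the classes by stage. Genes were named by size among those past the test, 12 each way. They were of 1 sign at all stages and had a mean of at least 20 TPM in the higher class. For day, the trend and E12.0, where none passed, 8 each way were named by size. The class difference of these had 1 sign at all stages, and their highest stage mean was at least 20 TPM. List members may also be named. Predicted, ribosomal protein, mitochondrial and small RNA genes and pseudogenes were passed over. Shh, Krt5, Trp63 and Col3a1 chose the cells and got no test. No doublet caller was run. Cells were sorted into single wells, and whether a well held more than 1 cell was not tested. Some members of the lists, counted there, are not reported here by name. Members and lists were chosen with earlier results of these data known. Fits were tested on simulated data. Python 3.11.15, pandas 2.3.3, scipy 1.17.1 and matplotlib 3.10.9 were used.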

Additional observations from a re-analysis of the deposited data

Results flagged for a closer look

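For 7 of 103 sets of 5 stage values, a single stage stood far from the other 4 by Dixon's criterion, which chance meets in about 1 set of 20. In 6 of them the stage was E13.0. The log2 difference of Dlx3 was 0.78 at E13.0 and 4.06 to 4.87 at the other stages, and that of Msx2 was 1.51 against 3.35 to 3.86. Dct had 2.55 at E13.0 against 3.34 to 3.64. Among lowered genes, E13.0 was nearer to 0 for Gas1 (-4.73 against -6.18 to -5.86), Plet1 (-1.45 against -3.23 to -2.94) and Bdnf (-0.12 against -2.41 to -1.98). Krt71, a keratin of the inner root sheath, differed by 5.94 at E17.0 and by -0.48 to 0.38 before, with 2 of 32 Shh-high cells at 10 TPM or more.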

How the results depend on the processing

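The 1941 calls (705 higher, 1236 lower) were within 1.5 times under other pseudocounts, scalings, plate weights and class limits except as follows. At a mean of at least 10 TPM 1281 genes passed (629 lower), and with no filter on low values 1087 (333 higher, 754 lower). Averaging log2 values gave 1243 higher. With Shh-high at 50 TPM or more, 3 stages had at least 5 cells of each class and 386 genes were higher. Leaving out stages or plates gave 501 to 1988 calls (147 to 714 higher, 354 to 1274 lower). Without E14.0 501, without E15.0 705 and without E17.0 897 passed, and without E13.5 460 were higher. Leaving out either plate of E13.5 left fewer than 5 Shh-high cells there, so the whole stage dropped out and the fit was the same. Chosen after seeing the data, weights by cell number gave 3362 calls (1188 higher, 2174 lower), and dropping cells with 3 or more markers of another cell type gave 1853. With no replicate block, that is without pairing the classes by stage, 2017 genes passed, and 84 of the 93 called genes named in the text still did. Of the 0 calls for change with day, 2 passed at a mean of at least 10 TPM, 3 with log2 values averaged and 9 with protein-coding genes rescaled; of the 0 for the trend, 4 passed at a mean of at least 10 TPM. Leaving out a stage gave 0 for both and for E12.0; plates were left out of the first comparison only. No called gene named in the text changed sign. Among genes that were not called, Gli1 was 0.56 with log2 values averaged and -0.53 to 0.23 with stages or plates left out (0.05 without E15.0, 0.23 without E17.0). Lhx2 was -0.26 with Shh-high at 50 TPM, -0.25 with weights by cell number and -0.070 to 0.84 with stages or plates left out, the lowest without E13.5. The slope of Dmkn per day was -0.060 with log2 values averaged, and with stages left out that of Krt1 ranged from -0.59 to 1.40, the lowest without E17.0. Causes were not tested. TPM keeps no depth, so counting error per gene is unknown, and E13.5 rests on 5 Shh-high cells.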

Other observations

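Genes near Shh were listed after their values were seen, from all genes of the table within 1 Mb of it on chromosome 5 (GENCODE M21, GRCm38; Shh at 28456815 to 28467256, minus strand). Gm26894, a noncoding gene on the plus strand at 28466374 to 28480973 that overlaps the start of Shh, had 14.5, 28.3, 20.3, 28.2 and 20.9 TPM from E13.0 to E17.0 in Shh-high cells against 1.78, 1.04, 1.005, 1.54 and 1.06 TPM in Shh-low cells. It shares positions with Shh and strand use in counting is not given, so these values are not independent of the gene that chose the cells and got no test. Of 14 tested genes that do not overlap Shh, 2 were higher in Shh-high cells and none lower, against 3.08% higher over all genes. Insig1, which did not pass (0.49 ± 0.27, limma adjusted p = 0.32), passed when log2 values were averaged (adjusted p = 0.020). Rnf32, a RING finger gene 728.7 kb away at 29195992 to 29228457, had 16, 31.5, 15, 22.4 and 22 TPM against 4.02, 2.40, 2.38, 3.07 and 2.33 TPM (2.51 ± 0.23, limma adjusted p = 0.0032). The other was Gm7420, a processed pseudogene inside Rnf32 (1.12 ± 0.15, limma adjusted p = 0.0092). Lmbr1, which lies next to Rnf32, differed by 0.58 ± 0.18 and did not pass (limma adjusted p = 0.095).

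Crhr1, a receptor for corticotropin-releasing hormone, had 6.60, 7.65, 39.6, 20.8 and 8.62 TPM in Shh-high cells against at most 0.453 TPM in Shh-low cells. Whrn, a scaffold protein known from hair cells of the ear, had 50.1, 130, 230, 171.5 and 91.5 TPM against 11.1 to 21.3 TPM. Both were named by the rule for E12.0, where they had 2.30 and 30.6 TPM in Shh-high cells.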
